A study of Mus musculus with 18 samples.

Results

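8 genes for inhibitory receptors were followed in mouse sensory ganglia: the mu, delta, kappa and nociceptin opioid-family receptors (Oprm1, Oprd1, Oprk1, Oprl1), the cannabinoid receptor CB1 (Cnr1), both subunits of the GABA-B receptor (Gabbr1, Gabbr2) and the adenosine A1 receptor (Adora1). They were chosen by name, not by their values. All 8 had a row in the count table and passed the filter on low counts, as 8 of the 15730 genes tested.

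RNA was sequenced from sciatic dorsal root ganglia (DRG), levels L4-L6, of C57BL/6 mice aged 6-8 weeks, collected 24 h after surgery. Each of the 18 libraries came from ganglia pooled from 2 mice, and there were 3 libraries in each of 6 groups. Of these, 2 groups concern the spinal cord: DCA, an injury of the dorsal columns, and LAM, laminectomy without that injury. The other 4 concern the sciatic nerve: injury with saline (SNA_Saline), sham surgery with saline (Sham_Saline), injury with 30 mM N-acetyl-cysteine, an antioxidant (SNA_NAC), and sham surgery with 13 mM H2O2 (Sham_H202, spelled as in the labels). All animals had surgery, so there was no group without it. Whole ganglia hold neurons, satellite glia, Schwann cells and other cells, and fewer cells of a type cannot be told apart from less RNA per cell.

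All of these receptors signal through Gi/o proteins. When a ligand binds, the alpha subunit lowers adenylyl cyclase activity, while the beta-gamma subunits close presynaptic calcium channels and open inwardly rectifying potassium channels. In primary sensory neurons this reduces transmitter release from the central terminals in the spinal cord, which is one way by which opioids, cannabinoids and baclofen relieve pain. The receptors are made in the cell body in the ganglion and carried along both axon branches.

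Expression is given as CPM, the counts of a gene scaled to a common library total with TMM factors, and a gene was called where its p-value, adjusted over all genes tested, was under 0.05. Total counts per library ran from 6472476 (Sham_H202 replicate 3) to 42435331 (SNA_NAC replicate 1). The 16 neuronal marker genes summed to between 19730 and 28390 CPM in every library, so the labelled tissue was present in all. Sham_Saline replicate 1 stood apart: its genes deviated from the group mean by a median of 0.261 on the log2 scale, the highest of all 18 libraries, followed by Sham_H202 replicate 3 (0.229) and Sham_Saline replicate 2 (0.218). Skeletal muscle markers summed to 6.11 CPM in Sham_Saline replicate 3 and 1171 CPM in Sham_Saline replicate 2, and their part in the results was not tested. Without Sham_Saline replicate 1, the number of genes called after sciatic injury rose from 430 to 2548.

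The promoters of 3 of these genes show how differently these genes begin. Oprl1 was the only receptor gene called after sciatic injury in the main edgeR fit, which used all libraries without offsets or a block. Gabbr2 had the most GC-rich promoter, and Adora1 the one with a match to the AP-1 pattern searched. Each is the 250 bases before the first RefSeq transcription start on GRCm38.p6, written in the direction of transcription, with capitals marking motif matches. Oprl1 lies on the plus strand at chr2:181714766-181715015, Gabbr2 on the minus strand at chr4:46991715-46991964 and Adora1 on the minus strand at chr1:134235458-134235707.
Oprl1: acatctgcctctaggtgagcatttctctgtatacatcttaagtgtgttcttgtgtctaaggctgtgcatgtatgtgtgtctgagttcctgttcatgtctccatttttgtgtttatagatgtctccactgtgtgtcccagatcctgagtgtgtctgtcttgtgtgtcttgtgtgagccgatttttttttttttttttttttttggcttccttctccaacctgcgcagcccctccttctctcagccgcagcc
Gabbr2: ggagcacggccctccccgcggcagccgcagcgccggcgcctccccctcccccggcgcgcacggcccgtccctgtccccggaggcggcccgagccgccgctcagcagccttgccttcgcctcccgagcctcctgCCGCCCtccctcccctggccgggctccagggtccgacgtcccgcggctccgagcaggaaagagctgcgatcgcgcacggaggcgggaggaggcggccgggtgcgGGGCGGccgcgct
Adora1: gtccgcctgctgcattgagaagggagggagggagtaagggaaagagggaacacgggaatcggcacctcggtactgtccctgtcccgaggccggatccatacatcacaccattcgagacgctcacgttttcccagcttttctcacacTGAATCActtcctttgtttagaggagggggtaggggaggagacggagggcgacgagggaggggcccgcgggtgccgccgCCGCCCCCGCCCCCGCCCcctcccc
The motifs searched on both strands were an AP-1 pattern, the cyclic AMP response element TGACGTCA, the GC box GGGCGG and the E-box CACGTG. The AP-1 pattern was TGANTCA with any base at N, a loose form of the site bound by Fos and Jun proteins. The Oprl1 window held no match, 3 CG pairs and 44.4% G or C. The Gabbr2 window had 2 GC boxes, 37 CG pairs and 80.8% G or C. Adora1 had 1 AP-1 match, which reads TGAATCA, 3 adjoining GC boxes and 19 CG pairs. The window before the other Adora1 start held no match to any of these motifs. Among 32851 windows of this length, the median was 6 CG pairs and 52.4% G or C, and 6.7% held an AP-1 match, 1.5% a cyclic AMP response element, 32.7% a GC box and 6.0% an E-box. Windows were found for 7 of the 8 receptor genes, and a match is a description of letters, not of binding.

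The order of mRNA levels, read from the deposited length-scaled FPKM values, put the GABA-B subunits and the A1 receptor far above the opioid receptors. Gabbr1 was the highest in all 18 libraries, with a median of 48.3 FPKM and a range of 39.9 to 53.9. Gabbr2 followed with a median of 20.7 FPKM (16.6 to 28.6). Adora1 came next with a median of 18.4 FPKM (14.3 to 23.1), below Gabbr2 in 14 libraries of 18, so these neighbours overlapped. Oprl1 had a median of 6.61 FPKM (3.46 to 7.37) and Cnr1 one of 5.64 FPKM (4.10 to 8.23), with Oprl1 above Cnr1 in 10 libraries. The 3 classical opioid receptors were scarce. Oprd1 had a median of 1.26 FPKM (0.569 to 3.92) and stood above Oprk1 in every library. Oprk1 had a median of 0.363 FPKM (0.256 to 0.573) and Oprm1 one of 0.222 FPKM (0.160 to 1.39), with Oprk1 above Oprm1 in 13 libraries. Those low levels rest on few reads: 11 to 234 counts per library for Oprm1, 16 to 101 for Oprk1 and 15 to 330 for Oprd1, against 2029 to 17997 for Gabbr1. The order of the 2 lowest depends on the length used, because the deposited FPKM imply 8141 bases for Oprm1 while its longest annotated transcript has 2420. Per kilobase of longest transcript, Oprm1 had a median of 0.742 CPM and Oprk1 one of 0.543, and Adora1 (22) then stood just above Gabbr2 (21.2).

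**Figure D1:**
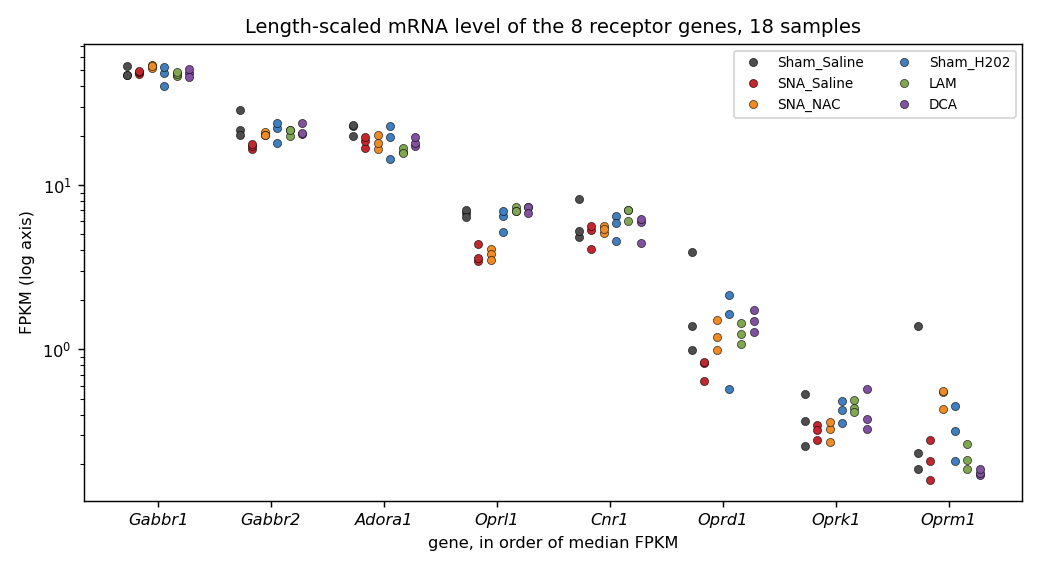
Length-scaled level (FPKM, log axis) of the 8 receptor genes, in order of median, with 1 point for each of the 18 libraries, coloured by group. Gabbr1 lies highest and Oprm1 lowest, and the Oprl1 points of SNA_Saline and SNA_NAC lie below those of the other 4 groups.

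Oprl1, the nociceptin/orphanin FQ receptor, was the only one of the 8 to pass the test after sciatic nerve injury, and its level fell by 42.2%. It lies on chromosome 2 at 181715016 to 181720985 (GRCm38, plus strand). In Sham_Saline its normalised counts were 24.4, 25.6 and 22.7 CPM in replicates 1, 2 and 3. In SNA_Saline they were 12.9, 16.3 and 13.0 CPM. Every injured library lay below every sham library, with a gap between 16.3 and 22.7 CPM. The log2 fold change was -0.79 (SE 0.12, 95% interval -1.05 to -0.53), with an adjusted p of 0.00143 in edgeR's quasi-likelihood test with Benjamini-Hochberg adjustment. In that comparison 2.73% of all genes were called, 340 higher and 90 lower, against 1 of the 8 receptor genes. Without Sham_Saline replicate 1 the log2 fold change of Oprl1 was -0.79 (adjusted p = 0.00305). When the spread was estimated from these 6 libraries alone, the value was -0.80 and the call was lost (adjusted p = 0.137).

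The lower level of Oprl1 after sciatic injury was seen against each of the 4 groups without it. LAM had 27.2, 25.6 and 25.2 CPM, DCA 26.9, 27.0 and 24.3 CPM, and Sham_H202 23.7, 24.3 and 19.6 CPM. None of these 9 libraries overlapped with the 3 of SNA_Saline. In comparisons added after the data had been seen, the log2 fold change of SNA_Saline was -0.89 against LAM (adjusted p = 0.000305 in edgeR, 2.45% of all genes called), -0.89 against DCA (adjusted p = 0.000256, 2.96% called) and -0.69 against Sham_H202 (adjusted p = 0.00856, 0.954% called). Oprl1 was the only receptor gene called in these 3 comparisons, which share the SNA_Saline libraries.

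With N-acetyl-cysteine, the mean Oprl1 level after sciatic injury was that found with saline, 14.1 CPM in both groups. SNA_NAC had 15.1, 14.3 and 12.8 CPM and overlapped SNA_Saline. The log2 difference between them was 0.01 (SE 0.12, 95% interval -0.25 to 0.27, adjusted p = 1 in edgeR). Against Sham_Saline, Oprl1 in SNA_NAC fell by 41.9% (log2 fold change -0.78, SE 0.12, adjusted p = 0.0011 in edgeR), with 3.32% of all genes called and 1 of the 8 receptor genes. With the spread taken from those 6 libraries alone, the adjusted p was 0.0711. Against the other controls the log2 fold changes of SNA_NAC were -0.89 for LAM (3.61% of genes called), -0.89 for DCA (4.53% called) and -0.68 for Sham_H202 (1.13% called), with edgeR adjusted p-values of 0.000235, 0.000202 and 0.00774. No other receptor gene was called in these 3.

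Dorsal column injury was not accompanied by a detectable change of Oprl1. DCA and LAM both averaged 26.0 CPM, and the log2 fold change was 0.00 (SE 0.12, 95% interval -0.25 to 0.25, adjusted p = 0.997 in edgeR). The sciatic change minus the dorsal column change, tested as an interaction of 4 groups in the fit on all 18 libraries, was -0.79 (SE 0.17, 95% interval -1.16 to -0.43, adjusted p = 0.031 in edgeR), with 1.61% of all genes called. This call is near the threshold: it was lost (adjusted p from 0.0553 to 0.114) without Sham_Saline replicate 2, without SNA_Saline replicate 1, and without any single library of LAM or DCA, while the log2 value stayed between -0.84 and -0.73 in those 8 fits. It was also lost in a fit on the 12 libraries of those groups alone (-0.79, adjusted p = 0.0522). The other 7 receptor genes did not pass, with values from -1.66 (Oprd1, SE 0.61, adjusted p = 0.0979) to 0.05 (Cnr1). The Oprd1 difference without Sham_Saline replicate 1 was -0.84 (adjusted p = 0.152).

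**Figure D2:**
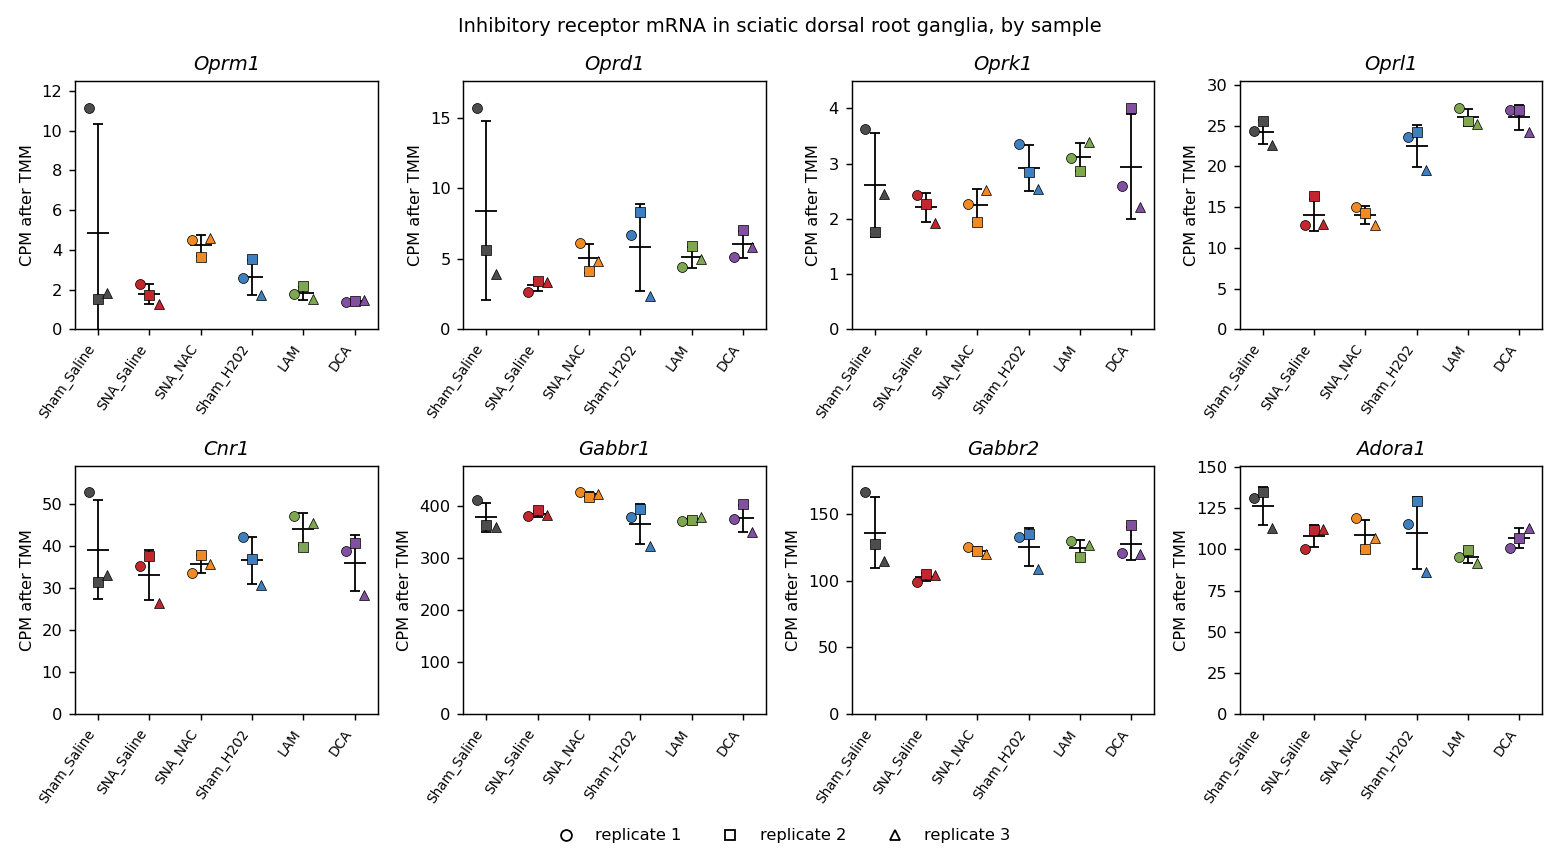
Level in CPM after TMM scaling (axes from 0) for each receptor gene in the 6 groups, with 1 marker for each library shaped by replicate number, and the mean with 1 SD of 3 libraries. Oprl1 separates both sciatic injury groups from the rest, and Sham_Saline replicate 1 is the highest point for Oprm1 (11.2 CPM) and Oprd1 (15.7 CPM). The lower SD bar of Oprm1 in Sham_Saline runs below the axis.

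Oprm1, the receptor for morphine and endorphins, had a log2 fold change of -1.45 after sciatic injury (SE 0.57, adjusted p = 0.169 in edgeR), which did not pass. In Sham_Saline the values were 11.2, 1.52 and 1.83 CPM. In SNA_Saline they were 2.31, 1.73 and 1.28 CPM. The sham mean is set by replicate 1, and the other 5 libraries overlap. Without that library the log2 fold change was 0.11 (adjusted p = 0.808). The gene lies on chromosome 10 at 6758506 to 7038198 (plus strand), and 96 exon bases, 1.2% of its own, overlap Ipcef1 on the opposite strand, whose mean was 2.02 CPM in Sham_Saline and 3.25 CPM in SNA_Saline.

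With N-acetyl-cysteine, Oprm1 was at 4.48, 3.63 and 4.60 CPM after injury. All 3 libraries lay above the 3 of SNA_Saline. The log2 difference was 1.25 (SE 0.565, 95% interval 0.06 to 2.45, unadjusted p = 0.0411, adjusted p = 1 in edgeR), and no gene of 15730 was called in that comparison. SNA_NAC against Sham_Saline gave -0.20 for Oprm1 (adjusted p = 0.814). Without Sham_Saline replicate 1 the sign turned and the gene was called, at 1.36 (adjusted p = 0.00338), in a fit that called 37.3% of all genes. The remaining groups were at 1.76, 2.17 and 1.51 CPM (LAM), 1.40, 1.45 and 1.49 CPM (DCA) and 2.59, 3.53 and 1.75 CPM (Sham_H202). DCA lay below LAM in each library, with a log2 fold change of -0.32 (SE 0.59, adjusted p = 0.815 in edgeR).

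Oprd1, the enkephalin-preferring delta receptor on chromosome 4 (132110726 to 132144486, minus strand), had the other large difference in mean. Sham_Saline had 15.7, 5.64 and 3.94 CPM. SNA_Saline had 2.64, 3.46 and 3.35 CPM. The groups did not overlap, but the nearest libraries were at 3.94 and 3.46 CPM. The log2 fold change was -1.44 (SE 0.44, adjusted p = 0.0939 in edgeR), and -0.63 (adjusted p = 0.18) without Sham_Saline replicate 1. DESeq2 called it (adjusted p = 0.0226), as did edgeR without Sham_Saline replicate 3 (-1.77, adjusted p = 0.0346). LAM at 4.45, 5.91 and 5.002 CPM and DCA at 5.17, 7.09 and 5.88 CPM lay above SNA_Saline, while Sham_H202 at 6.73, 8.33 and 2.38 CPM reached below it. SNA_NAC was at 6.16, 4.13 and 4.85 CPM, above each SNA_Saline library, with a log2 difference between the groups of 0.70 (SE 0.44, adjusted p = 1 in edgeR).

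Oprk1, the dynorphin receptor on chromosome 1 (5588466 to 5606131, plus strand), ranged from 1.77 to 4.01 CPM over all libraries. Its log2 fold change after sciatic injury was -0.24 (SE 0.27, 95% interval -0.80 to 0.33), and the groups overlapped. It was 0.09 without Sham_Saline replicate 1. The 95% interval with all libraries spans both directions, and these counts do not tell apart the values inside it.

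Summed over the 4 opioid-family genes, FPKM averaged 9.82 ± 2.47 (SD, n = 3) in Sham_Saline, 8.99 ± 0.116 in LAM, 9.25 ± 0.50 in DCA and 8.38 ± 1.85 in Sham_H202. After sciatic injury the sum was 5.10 ± 0.535 with saline and 5.85 ± 0.547 with N-acetyl-cysteine. The lowest uninjured library, Sham_H202 replicate 3 at 6.33, lay inside the range of SNA_NAC, which reached 6.475. Oprl1 made up 53.7% to 82.1% of this sum across the 18 libraries. The largest sum, 12.62 in Sham_Saline replicate 1, had the lowest Oprl1 share, with 31.1% from Oprd1. The Oprm1 share averaged 8.82 ± 1.14% in SNA_NAC and 4.27 ± 1.43% in SNA_Saline, without overlap, and reached 11% in Sham_Saline replicate 1. These sums and shares were not tested.

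**Figure D3:**
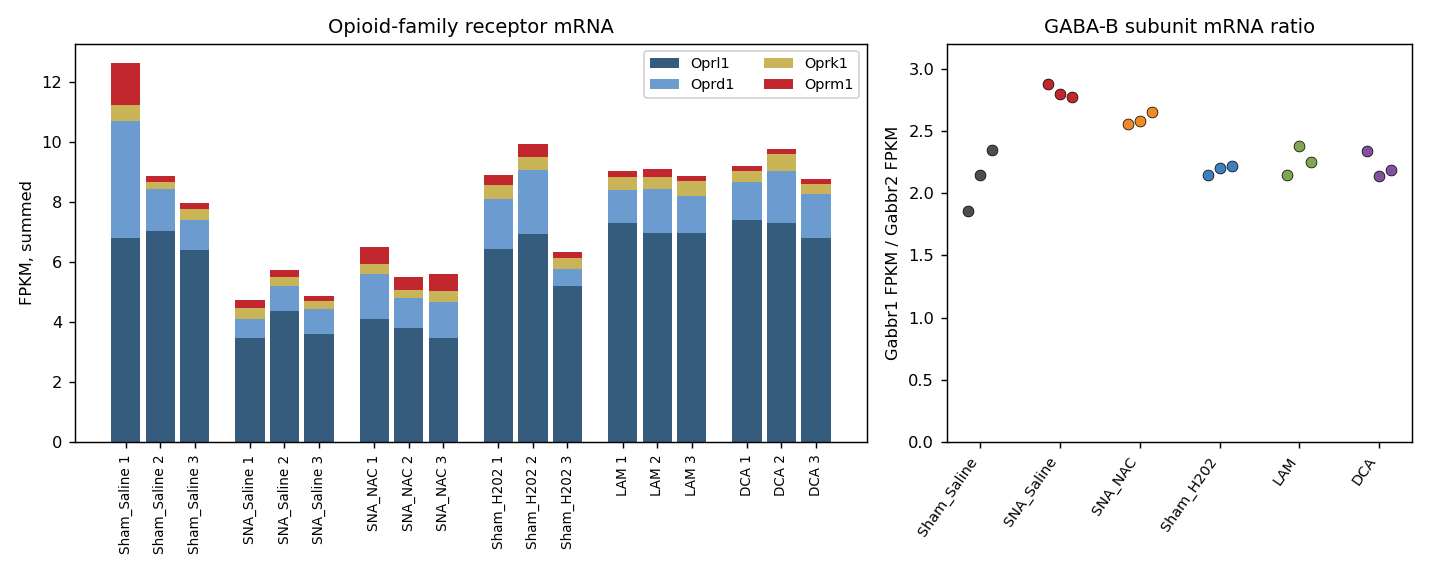
Left, bars of summed FPKM of the 4 opioid-family receptor genes in each library, stacked by gene. Right, the ratio of Gabbr1 to Gabbr2 FPKM with 1 point per library. Oprl1 is the largest block in every bar, the sciatic injury bars are the shortest on average, and the ratio is 2.77 to 2.88 in SNA_Saline against 1.86 to 2.38 in the 4 groups without sciatic injury.

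Gabbr1 and Gabbr2 encode the subunits that pair into the GABA-B receptor, the target of baclofen: the first binds GABA and the second couples to the G protein. Gabbr1 (chromosome 17, 37045966 to 37075067, plus strand) was steady, at 378 ± 28.8 CPM in Sham_Saline and 385 ± 5.83 CPM in SNA_Saline (SD, n = 3). Its log2 fold change was 0.03 (SE 0.09, 95% interval -0.16 to 0.22). With N-acetyl-cysteine it was at 427, 418 and 423 CPM, above every other library, and the log2 difference from SNA_Saline was 0.13 (SE 0.09, adjusted p = 1 in edgeR).

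Gabbr2 (chromosome 4, 46662305 to 46991873, minus strand) was at 167, 127 and 115 CPM in Sham_Saline. In SNA_Saline it was at 99.6, 105 and 104 CPM. These 3 libraries were the lowest of all 18, but the log2 fold change of -0.41 (SE 0.12, adjusted p = 0.0922 in edgeR) did not pass. It was -0.24 (adjusted p = 0.105) without Sham_Saline replicate 1, and -0.42 with a call in DESeq2 (adjusted p = 0.0328). Without Sham_Saline replicate 3 edgeR called it as well (-0.51, adjusted p = 0.0397). SNA_NAC at 126, 122 and 121 CPM lay above SNA_Saline by 0.25 on the log2 scale (SE 0.12, unadjusted p = 0.0551, adjusted p = 1 in edgeR), among LAM at 118 to 130 CPM and DCA at 121 to 142 CPM.

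The ratio of Gabbr1 to Gabbr2 FPKM was 2.77 to 2.88 in SNA_Saline and 2.56 to 2.65 in SNA_NAC, above the 1.86 to 2.38 of the other 4 groups. This ratio was not tested. Counts also held a fitted trend with the GC content and length of transcripts. For Gabbr2 the trend averaged 0.28 (log2) in Sham_Saline, -0.07 in both SNA_Saline and Sham_H202, and -0.20 in LAM. For Gabbr1 it averaged 0.14, -0.03, -0.05 and -0.11 in those groups, in that order. The mean ratio there was 2.12, 2.82, 2.19 and 2.26. In DCA the trend was 0.05 for Gabbr2 and 0 for Gabbr1, with a mean ratio of 2.22. In SNA_NAC it was 0.01 for Gabbr2 and 0.05 for Gabbr1, with a mean ratio of 2.60. How far the trend entered the ratio was not tested. With that trend removed, the log2 fold change of Gabbr2 after sciatic injury was -0.07 (adjusted p = 0.842 in edgeR), and that of Gabbr1 was 0.20 (adjusted p = 0.171). For Oprl1 the trend was flat, at 0.02 in Sham_Saline and 0.01 in SNA_Saline, and its log2 fold change was -0.78 with the trend removed (adjusted p = 0.000209).

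Cnr1, which encodes the CB1 receptor for anandamide and 2-arachidonoylglycerol (chromosome 4, 33924593 to 33948831, plus strand), was at 39.2 ± 11.9 CPM in Sham_Saline and 33.1 ± 5.95 CPM in SNA_Saline. The groups overlapped, and the log2 fold change of -0.25 (SE 0.20, adjusted p = 0.437 in edgeR) became 0.03 without Sham_Saline replicate 1. With the GC and length trend removed and lane as a block it was called, at -0.35 (adjusted p = 0.0394). LAM was at 47.1, 39.8 and 45.6 CPM and DCA at 38.9, 40.6 and 28.4 CPM, with a log2 difference of -0.30 (SE 0.19, adjusted p = 0.624 in edgeR).

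Adora1, the receptor through which adenosine dampens nociceptor output (chromosome 1, 134199223 to 134235431, minus strand), was at 131, 135 and 113 CPM in Sham_Saline. SNA_Saline had 101, 112 and 113 CPM. The nearest libraries of the groups were at 113.1 and 112.6 CPM, and the log2 fold change was -0.22 (SE 0.12, adjusted p = 0.282 in edgeR). DCA at 101, 107 and 113 CPM lay above each LAM library, with a log2 difference between the groups of 0.16 (SE 0.12, adjusted p = 0.625 in edgeR). A larger contrast lay between the surgical controls, because LAM was at 95.4, 99.6 and 91.6 CPM. Sham_Saline exceeded LAM by 0.40 on the log2 scale (SE 0.12, adjusted p = 0.104 in edgeR), where 0 receptor genes and 0.0699% of all genes were called. Of the 8, 2 (Adora1 and Oprm1) had an unadjusted p under 0.05, as did 30.3% of all genes, and the Oprm1 difference went from 1.43 to -0.12 without Sham_Saline replicate 1. Adora1 was called by DESeq2 (adjusted p = 0.0436), which called 1083 genes, and by edgeR without Sham_Saline replicate 1 (adjusted p = 0.0463), where 31.8% of all genes were called. With the GC and length trend removed the difference was 0.07 (adjusted p = 0.65). Exons of Mybph on the opposite strand overlap 1162 exon bases of Adora1, 20.1% of them, and Mybph averaged 31.2 CPM in Sham_Saline and 21.7 CPM in LAM. Whether the counting used strand is not given in the sources used here, and the part of this overlap in the Adora1 values was not tested.

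Across all 8 genes, 7 had a negative log2 fold change after sciatic injury with saline, with a median of -0.33 against -0.03 over all genes tested. That tally rests on 1 library: without Sham_Saline replicate 1, 4 of the 8 were negative, with a median of -0.08. With all libraries, 4 had an unadjusted p under 0.05 (Oprm1, Oprd1, Oprl1 and Gabbr2), as did 22.5% of all genes. SNA_NAC against Sham_Saline also gave 7 negative values, with a median of -0.20 against -0.01 for all genes. With Sham_Saline replicate 1 left out, 2 (Oprl1 and Adora1) were negative and 6 positive, and the median was 0.10. Both comparisons share the Sham_Saline libraries. SNA_NAC against SNA_Saline gave 8 positive values, with a median of 0.12 against 0.00, of which none was called by edgeR or DESeq2 and 1 had an unadjusted p under 0.05. The values of Adora1 (0.005, SE 0.124), Oprl1 (0.007, SE 0.123) and Oprk1 (0.033, SE 0.266) were far smaller than their SE. With GC and length offsets, Adora1 (-0.05), Oprk1 (-0.04) and Cnr1 (-0.01) were negative. In that comparison 0% of all genes were called, and 314 had an unadjusted p under 0.05.

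**Figure D4:**
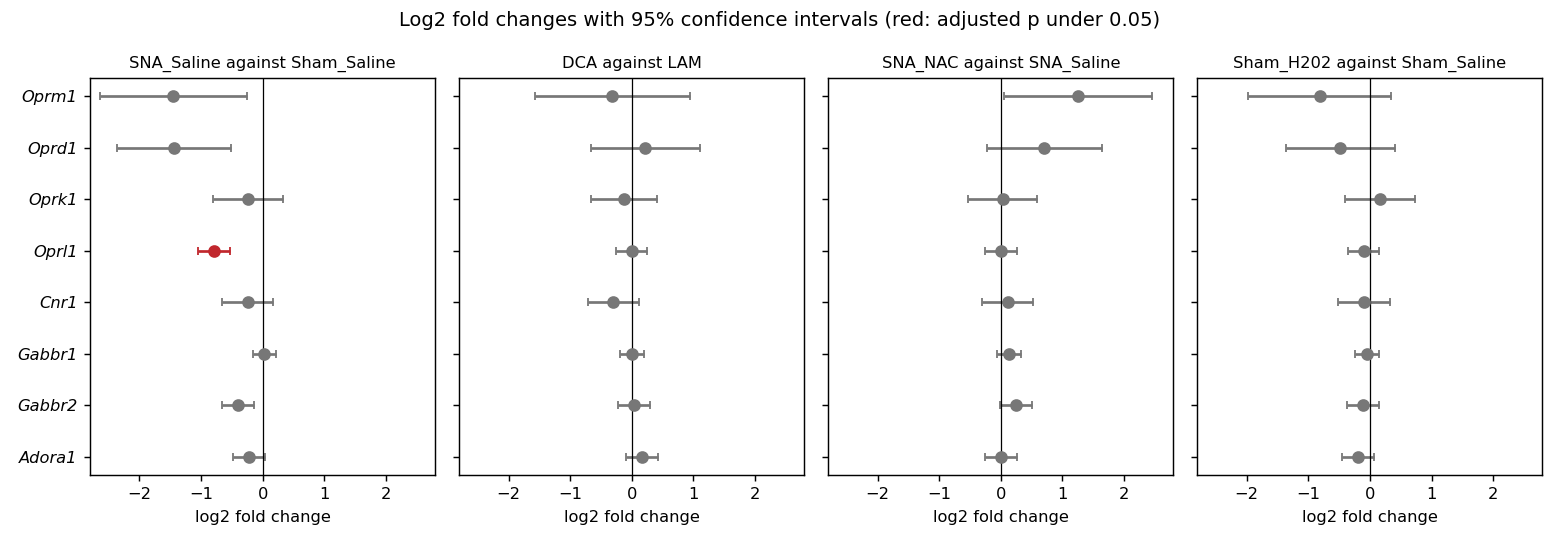
Log2 fold change of each receptor gene with its 95% confidence interval in 4 comparisons, with red for an adjusted p under 0.05 in edgeR. The interval of Oprl1 after sciatic injury (-1.05 to -0.53) is the one shown in red, and the intervals of Oprm1 and Oprd1 are the widest.

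Dorsal column injury gave no call among the 8 genes by edgeR or DESeq2, and none had an unadjusted p under 0.05. Over all genes 0% were called by edgeR, 2 by DESeq2, and 793 had an unadjusted p under 0.05. The 8 log2 fold changes ran from -0.32 (Oprm1) to 0.22 (Oprd1). Peroxide on the sham nerve likewise gave no call by either tool and no unadjusted p under 0.05 among the 8. There 0% of all genes were called by edgeR, 4 by DESeq2, and 1440 had an unadjusted p under 0.05. The 8 values ran from -0.82 (Oprm1, SE 0.55) to 0.16 (Oprk1, SE 0.27). Leaving out Sham_Saline replicate 1, they ran from -0.16 (Adora1) to 0.75 (Oprm1, unadjusted p = 0.0191, adjusted p = 0.114), and Oprd1 turned from -0.48 to 0.35. For Gabbr1, the most precisely measured, the 95% interval was -0.18 to 0.20 after dorsal column injury and -0.24 to 0.14 with peroxide.

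For several genes the value after sciatic injury differed with the control used. Against LAM in place of Sham_Saline, the log2 fold change of SNA_Saline was -0.01 for Oprm1, -0.72 for Oprd1, -0.28 for Gabbr2, -0.42 for Cnr1 and 0.18 for Adora1, none of them called. Against DCA it was 0.30 for Oprm1, -0.94 for Oprd1 and -0.31 for Gabbr2, also not called. Oprd1, Oprk1, Oprl1, Cnr1 and Gabbr2 had a negative value against each of the 4 controls, in comparisons that share the SNA_Saline libraries. Against Sham_Saline without replicate 1, Oprk1 (0.09) and Cnr1 (0.03) were positive.

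**Figure D5:**
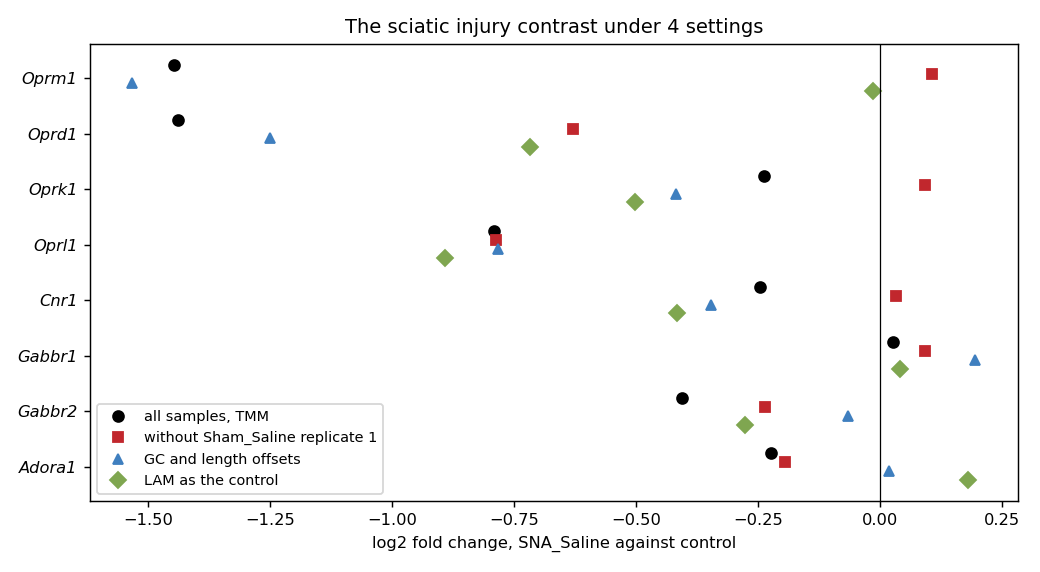
Log2 fold change of SNA_Saline against control for each receptor gene under 4 settings: all libraries, without Sham_Saline replicate 1, with GC and length offsets, and with LAM as the control. Oprl1 stays between -0.89 and -0.78, whereas Oprm1 runs from -1.53 to 0.11 and Gabbr2 from -0.41 to -0.07.

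Other genes of Gi/o signalling came from lists of ligand precursors, enzymes, G protein subunits, regulators and effectors, of which 125 of 145 genes were tested. After sciatic injury with saline 2 were called higher and 2 lower, with a median log2 fold change of -0.13, in a comparison where 2.73% of all genes were called. Without Sham_Saline replicate 1, 5 were called higher and 17 lower, where 16.2% of all genes were called. Among RGS proteins, which speed the switching off of G proteins, 1 of 17 rose and 1 fell. Rgs20 went from 4.56 ± 0.293 CPM in Sham_Saline to 13.0 ± 1.90 CPM in SNA_Saline (log2 fold change 1.497, SE 0.20, adjusted p = 0.000258 in edgeR). Rgs8 went from 60.8 ± 12.1 to 41.5 ± 5.74 CPM (log2 fold change -0.55, adjusted p = 0.0371).

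Of 26 other Gi/o-coupled receptors tested, 1 rose and none fell. Npy1r, the neuropeptide Y receptor Y1, went from 34.0 ± 6.81 to 67.3 ± 3.48 CPM (log2 fold change 0.99, SE 0.15, adjusted p = 0.00103 in edgeR). Of 5 effector channels tested, 1 fell: Cacna1h, a low-voltage-activated calcium channel, went from 22.3 ± 5.19 to 11.3 ± 1.42 CPM (log2 fold change -0.98, adjusted p = 0.0395). All 9 adenylyl cyclase genes had a negative value, with a median of -0.25, and none was called. The same 9 were negative for Sham_H202 against Sham_Saline (median -0.21), which shares the sham libraries, and 7 of 9 were positive for Sham_Saline against LAM (median 0.27). None of the 5 Gi/o alpha subunits, 13 beta and gamma subunits, 11 endocannabinoid enzymes, 8 genes of GABA handling, 7 receptor kinases and arrestins, 7 receptor-associated proteins, 2 other adenosine receptors or 14 genes of adenosine formation and clearance was called. Of 4 opioid peptide precursor genes, Penk, which encodes the enkephalins, was the one tested, at 14.2 ± 5.54 CPM in Sham_Saline and 12.9 ± 1.69 CPM in SNA_Saline (log2 fold change -0.13, SE 0.26).

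With N-acetyl-cysteine, 2 of the 125 were called higher and 2 lower, where 3.32% of all genes were called. Rgs20 (14.04 ± 1.5 CPM, log2 fold change against Sham_Saline 1.62) and Npy1r (80.1 ± 6.61 CPM, 1.24) were again called higher. Cacna1h (11.9 ± 2.23 CPM, -0.90) was again called lower. Adra2c, an alpha-2 adrenergic receptor, was called lower as well (12.8 ± 4.30 to 5.82 ± 0.904 CPM, log2 fold change -1.12, adjusted p = 0.028 in edgeR). Rgs20 and Npy1r were also the 2 called genes of these lists in the difference between the sciatic and dorsal column responses, at 2.10 and 1.23 on the log2 scale, where 1.61% of all genes were called. No gene of the lists was called for DCA against LAM, SNA_NAC against SNA_Saline or Sham_H202 against Sham_Saline.

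Among markers of cell types in the ganglion, Gfra2, 1 of 5 listed for non-peptidergic nociceptors, was lower after sciatic injury (130 ± 16.4 to 91.1 ± 9.92 CPM, log2 fold change -0.52, adjusted p = 0.0095 in edgeR). That list had 3 positive and 2 negative values, with a median of 0.02. Its sum was 900 to 1212 CPM in Sham_Saline and 1030 to 1071 CPM in SNA_Saline. Adcyap1, 1 of 5 listed for peptidergic neurons, rose from 116 ± 14 to 359 ± 57.5 CPM. The peptidergic list had 3 positive and 2 negative values, with a median of 0.07. Gfap, an astrocyte gene on the list of spinal cord markers that activated satellite glia also express, rose from 1.71 ± 0.52 to 5 ± 1.6 CPM. The 16 neuronal markers summed to 22570 to 28390 CPM in Sham_Saline and 22130 to 22710 CPM in SNA_Saline, and 0 of them was called. The 5 spinal cord markers tested summed to 256 to 373 CPM in Sham_Saline, 358 to 442 CPM in SNA_Saline and 386 to 438 CPM in SNA_NAC, against 247 to 396 CPM over LAM and DCA. Most of that sum was Slc17a6, which sensory neurons also express (283 ± 60 CPM in Sham_Saline and 380 ± 49.4 CPM in SNA_Saline, not called). Of 7 satellite glia markers none was called. How far a change in cell makeup entered the Oprl1 values was not tested.

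The genes whose pattern over the 18 libraries was most like that of each receptor gene were named by the Pearson r of log2 CPM among 12990 other genes with a mean count of at least 50 (12991 for Oprk1, whose own mean was lower), as a description. For Oprl1 they were Gm16551 (r = 0.96) and Htr3b (r = 0.94), a subunit of the serotonin-gated 5-HT3 channel. Htr3b averaged 22.4 CPM in Sham_Saline, 14.5 CPM in SNA_Saline, 16.8 CPM in SNA_NAC, 23.8 CPM in LAM, 24.8 CPM in DCA and 21.7 CPM in Sham_H202. It was thus lowest in the same 2 groups. For Oprd1 they were D130043K22Rik (r = 0.96) and Gfod1 (r = 0.96), and Gfod1 was also the nearest to Gabbr2 (r = 0.95), followed by Slitrk3 (r = 0.93). For Oprm1 they were Nrp2 (r = 0.92) and Ago2 (r = 0.91), for Oprk1 Gclc (r = 0.90) and Grik1 (r = 0.88), and for Cnr1 Frmpd4 (r = 0.93) and Parm1 (r = 0.92). For Gabbr1 they were Abhd2 and Kat7 (both r = 0.94) and for Adora1 Rps6ka2 and Ttbk1 (both r = 0.94).

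Within the 8 genes, the closest pair over 18 libraries was Oprd1 and Gabbr2 (r = 0.91, and 0.86 without Sham_Saline replicate 1). Oprm1 and Oprd1 had an r of 0.58, which was 0.23 without that library. The lowest r of any pair over 18 libraries was that of Oprl1 and Gabbr1 (r = -0.38), and none of these r values was tested. All these points share lanes, depth and the GC and length trend of their libraries.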

How the data were processed

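RNA from 18 pools of sciatic DRG was made into libraries with a stranded mRNA kit and read single-end over 100 cycles, 6 libraries to each of 3 lanes, per the labels' protocols. The deposited table of raw counts per gene and the deposited table of FPKM were made by the authors from reads on mm10. The submitters' processing notes name TopHat2 2.0.12, Bowtie2 2.2.3, SAMtools 0.1.19, HTSeq 0.6.0, edgeR 3.8.6, limma 3.22.7, R 3.1.1 and FastQC 0.10.1, without their roles. The annotation and the strand setting of the counting are not given in the sources used here.

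Counts were fitted with edgeR 4.0.16 (R 4.3.3; TMM, filterByExpr, glmQLFit and glmQLFTest), with 6 group means over all 18 libraries, which leaves 12 residual degrees of freedom. None of the 15730 genes was removed by the filter. Adjustment was by Benjamini-Hochberg across the whole table, with a threshold of 0.05. The code was tested on simulated data. FPKM were used for levels between genes and, with limma 3.58.1 on log2(FPKM + 1) and log2(FPKM + 0.1), as an alternative. Other alternatives were DESeq2 1.42.0, RLE scaling, at least 10 counts in every library, no filter, only the groups compared, lane as a block, offsets for GC content and length (splines with 5 degrees of freedom, 99.5% of genes covered), and leaving out each library. Other control groups were added after the data had been seen. The common biological coefficient of variation was 17.4%. Each library is a pool of 2 mice, so p-values measure the spread between pools, and an exact permutation test of 3 against 3 cannot go below p = 0.1.

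The replicate number in the labels equals the lane, so same-numbered libraries share a lane. Their deviations from the group means correlated between -0.65 and 0.56 over the comparisons. The receptor genes, the pathway and marker lists and the tests were chosen with earlier results of these data known. Pathway genes are named where called, at most 12 in a comparison, and for each receptor gene the 2 genes of highest Pearson r are named. Promoters are RefSeq's on GRCm38.p6, gene positions are GENCODE M21's.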

Additional observations from a re-analysis of the deposited data

Results flagged for a closer look

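The response of Oprl1 to sciatic injury differed from its response to dorsal column injury by -0.793 on the log2 scale (SE 0.172, adjusted p = 0.031 by edgeR's test of the interaction). All 3 SNA_Saline libraries lay below all 3 of Sham_Saline, while DCA and LAM overlapped. Over 22 alternatives the value ran from -0.90 to -0.70 and the call was lost in 9, with an adjusted p of up to 0.114.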

How the results depend on the processing

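For Oprl1 after sciatic injury with saline, 18 of 19 alternatives kept direction and call, with log2 fold changes from -0.91 to -0.69, and with N-acetyl-cysteine likewise 18 of 19, from -0.89 to -0.68. The exception in both was the fit on only the groups compared, which has fewer libraries from which to estimate the spread. It called 0 receptor genes in each of these comparisons and 0 in the sciatic minus dorsal column difference (Oprl1 edgeR adjusted p = 0.137, 0.0711 and 0.0522). Over all genes it called 65, 68 and 151, in that order. DESeq2 called 3 receptor genes after sciatic injury (Oprd1, Oprl1, Gabbr2), where it called 863 of all genes. It called 1 (Adora1) between Sham_Saline and LAM, where it called 1083 of all genes, and the cause was not tested. Offsets for GC and length with the replicate block called 2 (Oprl1 and Cnr1) in SNA_Saline and 2 in SNA_NAC against Sham_Saline. Over all genes those fits called 1013 and 1132. The replicate block alone, with lane as the block, gave -0.79 for Oprl1 after sciatic injury (adjusted p = 0.00109) and changed no call among the 8 genes.

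Leaving out each library in turn, 1 to 3 receptor genes were called after sciatic injury (3 without Sham_Saline replicate 3). For SNA_NAC against Sham_Saline 1 to 2 were called (2 without Sham_Saline replicate 1). From 0 to 1 were called for the difference, and from 0 to 1 for Sham_Saline against LAM. Over all genes these fits called 174 to 2548, 215 to 5861, 55 to 4600 and 4 to 5009, in that order. Without Sham_Saline replicate 3, 432 genes were called after sciatic injury. Oprm1 in SNA_NAC against Sham_Saline ran from -0.64 to 1.36 and was called with the opposite sign at 1.36 without Sham_Saline replicate 1. Of 992 alternative values for 56 gene-by-comparison results, 972 kept their side of the threshold without a called change of sign, 11 lost a call, 8 gained one and 1 was called with the sign reversed. The sign was the same under every alternative in 18 of the 56, and in the others an uncalled value changed sign under at least 1. Depth limits Oprm1, Oprk1 and Oprd1 most, at 11, 16 and 15 counts in their shallowest libraries. Over all genes, sciatic injury gave 430 calls, 863 with DESeq2, 65 on only the groups compared, 1013 with GC and length offsets and the replicate block, and 2548 without Sham_Saline replicate 1.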
